A study of Mus musculus with 16 samples.

Results

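The genes of the p53 and Gadd45 stress response were followed by name in olfactory bulb microglia: Trp53, Cdkn1a, Mdm2, Ccng1, Gadd45a, Gadd45b, Gadd45g, Sesn1, Bbc3 and Phlda3. They are 10 of the 57010 genes in the count table, and all 10 were among the 18227 genes with enough counts to be tested. The data are 16 RNA sequencing libraries of microglia from mice aged 2 months, 4 from each sex of each genotype. WT animals were C57BL/6J with the mouse App gene, and KI animals were the APP-NL-G-F line, in which App is humanised and carries 3 familial changes, Swedish (NL), Arctic (G) and also Iberian (F), at its own locus and so in every cell that uses the gene. Cells were taken from the bulb on CD11b beads, which also bind other myeloid cells. Nothing in the labels says which libraries came from separate litters, and a form filed with the study mentions technical replicates for RNA sequencing without saying how they enter the libraries. The p-values therefore measure the spread between these libraries, which may be technical in part.

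The p53 protein, made from Trp53, is a transcription factor that is held low by the ubiquitin ligase Mdm2 and accumulates after DNA damage and other stresses. It then switches on genes of cell cycle arrest (Cdkn1a, which encodes p21), of repair and antioxidant defence (Gadd45a, Sesn1), of apoptosis (Bbc3, which encodes the BH3-only protein PUMA) and of its own restraint (Mdm2, Ccng1). Phlda3 encodes a p53-induced inhibitor of Akt signalling. The Gadd45 proteins are small stress sensors that bind PCNA, Cdk1 and the MAP kinase kinase kinase Map3k4. Gadd45b and Gadd45g are also induced by NF-kB, cytokines or immediate early signalling without p53.

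The promoters of the Gadd45 family and of Cdkn1a are shown because Cdkn1a and Gadd45g were called for genotype over both sexes, and Gadd45a and Gadd45b are the family members of Gadd45g. Each runs from 250 bases before to 50 bases after the start of the canonical GENCODE vM39 transcript on GRCm39, read on the gene's strand. Capitals mark a p53 decamer (the 10-base unit of a p53 response element, searched by name on both strands) in Gadd45a and the TATA box TATAAA in Gadd45b and Gadd45g. The windows are chr6:67014341-67014640 on the minus strand for Gadd45a, chr10:80765657-80765956 on the plus strand for Gadd45b, chr13:52000464-52000763 on the plus strand for Gadd45g and chr17:29312488-29312787 on the plus strand for Cdkn1a.
Gadd45a: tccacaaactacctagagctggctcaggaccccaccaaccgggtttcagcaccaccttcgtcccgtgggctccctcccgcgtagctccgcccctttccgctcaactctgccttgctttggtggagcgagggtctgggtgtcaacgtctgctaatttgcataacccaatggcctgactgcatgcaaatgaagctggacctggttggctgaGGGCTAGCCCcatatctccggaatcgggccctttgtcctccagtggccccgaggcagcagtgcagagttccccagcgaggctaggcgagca
Gadd45b: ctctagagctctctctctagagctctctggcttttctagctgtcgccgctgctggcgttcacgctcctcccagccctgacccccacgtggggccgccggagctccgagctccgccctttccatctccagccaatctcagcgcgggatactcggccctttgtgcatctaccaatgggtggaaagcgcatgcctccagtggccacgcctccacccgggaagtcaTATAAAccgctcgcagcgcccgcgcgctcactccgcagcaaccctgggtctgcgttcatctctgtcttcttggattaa
Gadd45g: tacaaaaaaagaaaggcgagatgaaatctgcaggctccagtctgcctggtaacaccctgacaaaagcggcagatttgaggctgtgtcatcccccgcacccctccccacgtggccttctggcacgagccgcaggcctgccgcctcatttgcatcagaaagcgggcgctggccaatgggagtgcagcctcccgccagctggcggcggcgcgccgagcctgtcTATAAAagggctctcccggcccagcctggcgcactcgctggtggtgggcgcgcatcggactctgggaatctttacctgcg
Cdkn1a: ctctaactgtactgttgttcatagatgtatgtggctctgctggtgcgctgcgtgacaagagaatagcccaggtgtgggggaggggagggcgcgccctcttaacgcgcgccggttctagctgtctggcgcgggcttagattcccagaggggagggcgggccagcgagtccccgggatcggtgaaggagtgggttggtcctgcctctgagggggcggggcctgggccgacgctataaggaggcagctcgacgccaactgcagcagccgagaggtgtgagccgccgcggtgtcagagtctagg

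The TATA box lay 28 bases before the start of Gadd45b and 30 before that of Gadd45g, and another match lay on the reverse strand of the Trp53 window. Among 13680 protein-coding promoters of tested genes, 8.25% held TATAAA on either strand. A p53 decamer was found in 6 of the 10 windows, against 7.40% of all promoters. The 10 genes were chosen as Trp53, p53 targets and Gadd45 genes, so this share is no result of these libraries. The 6 matches are shown in capitals to let their letters be compared, and they lie at chr11:69471110-69471119 in Trp53, chr10:117546840-117546849 in Mdm2, chr11:40646289-40646298 in Ccng1, chr6:67014422-67014431 in Gadd45a, chr10:41763262-41763271 in Sesn1 and chr7:16042628-16042637 in Bbc3.
Trp53: GGACTTGCCC
Mdm2: GAACTTGCCT
Ccng1: GGGCAAGCCT
Gadd45a: GGGCTAGCCC
Sesn1: AAGCTTGTTT
Bbc3: GGGCATGTCT

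The windows of Cdkn1a, Gadd45b, Gadd45g and Phlda3 held no match to the decamer. No gene of the 10 had an exact full p53 site of adjoining decamers within 5000 bases on either side of its start, against 0.241% of the genes searched. Both p53 searches allowed no mismatch, and the full site no spacer between its decamers. Sites with a mismatch or a spacer were not looked for, so the search cannot show that a gene lacks a p53 site. The GC box GGGCGG was in 6 of 10 windows and in 56.8% of all promoters. TGACG, the core of the cAMP response element, was in 2 (Mdm2 and Sesn1) and in 28.4% of promoters. The whole element TGACGTCA (3.14% of promoters), the AP-1 site (3.66%), the NF-kB site (5.28%) and the CArG box (1.35%), the last 3 searched by name on both strands, were in none of the 10. These are matches of letters and not measured binding.

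Library totals ran from 9052932 to 18117286 counts. Of 15 microglia markers none was called different between the genotypes, and their summed level was 24506 to 29198 CPM (counts scaled to library size with edgeR's TMM factors) in WT and 24255 to 28334 in KI libraries. Border macrophage markers summed to 419.3 to 723.7 CPM in WT and 553.7 to 874.8 in KI libraries, and none of 7 was called. Monocyte markers summed to 20.8 to 33.4 CPM in WT and 23.4 to 31.4 in KI libraries, with none of 6 called. Red blood cell genes were too low to test (0 of 5). Neuron markers summed to 403.7 to 562.5 CPM in WT and 503.1 to 740.0 in KI libraries, and none of 14 was called. With the FDR alone 5 of them passed as higher (Gad2, Snap25, Syt1, Gad1 and Map2), and the list median was 0.33. Of all tested genes 6.95% passed the FDR alone as higher and 7.82% as lower. Neuroblast markers summed to 65.0 to 89.3 CPM in WT and 68.8 to 127.8 in KI, with Dcx and Igfbpl1 called higher of 8. With the FDR alone 4 of these 8 passed as higher, and the list median was 0.34. Oligodendrocyte markers summed to 231.7 to 430.9 CPM in WT and 283.8 to 417.8 in KI, and Mog was called higher of 7. All 7 had a log2 fold change above 0 (median 0.38), and 3 passed the FDR alone. None of 7 astrocyte or 9 endothelial markers was called. Of the astrocyte markers 6 had a log2 fold change below 0 (median -0.23), and Gfap (-0.43) passed the FDR alone as lower. All 9 endothelial markers were below 0 (median -0.16), and 0 passed the FDR alone. WT females 1 and 2 stood apart, with astrocyte sums of 976.5 and 1166 CPM against 479.7 to 784.0 in all other libraries. Their endothelial sums were 179.1 and 225.5 CPM against 68.7 to 133.3. Each of them was left out singly in fits below, but the part of these markers in the results was not tested. Xist was at least 546.8 CPM in every female library and at most 0.448 in males, as the sex in the labels requires. In these bulk libraries a lower level can be less RNA per cell or fewer of the cells that carry it.

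Per kilobase of exon, the order of the mean levels over all 16 libraries ran from Gadd45g (24.0 CPM per kb ± 6.94, SD) through Ccng1 (22.7 ± 1.49), Gadd45b (19.7 ± 8.51) and Sesn1 (15.95 ± 1.74) to Mdm2 (7.11 ± 0.917). Exon length is the union over all annotated transcripts of a gene, so a long isoform lowers the value whether or not it is expressed. The order between genes depends on that choice. Below them stood Trp53 (3.85 ± 0.305), Gadd45a (3.17 ± 0.947), Cdkn1a (2.71 ± 0.749), Bbc3 (1.65 ± 0.381) and Phlda3 (0.315 ± 0.115). The ranges of neighbours did not overlap between Sesn1 and Mdm2, between Mdm2 and Trp53 and between Bbc3 and Phlda3, and all other neighbours overlapped. Gadd45g was at the 94.2nd percentile of tested genes with a length and Phlda3, with 3 to 20 counts per library, at the 13.97th. Trp53 and Ccng1 varied least between libraries, with coefficients of variation of 7.92% and 6.56% of CPM, and Gadd45b varied most with 43.3%.

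**Figure D1:**
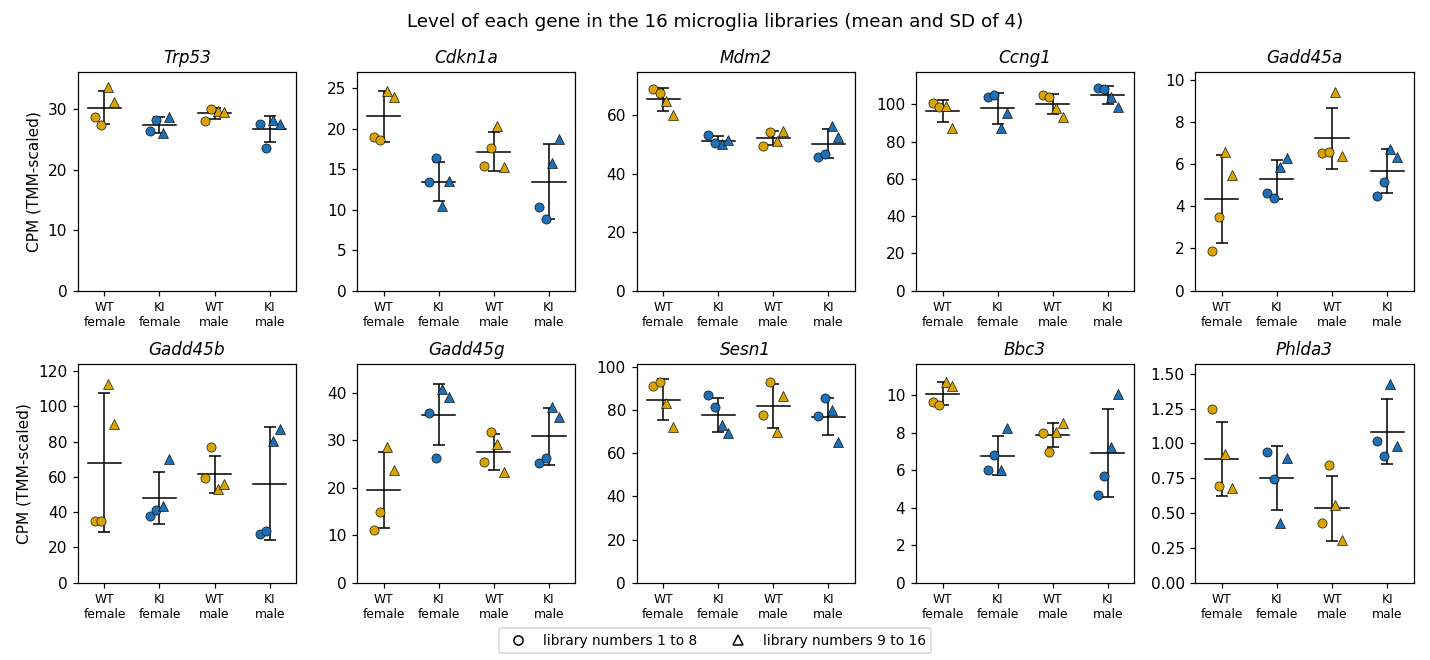
CPM (TMM-scaled, y axis from 0) of the 10 genes in the 4 groups, with 1 point per library, circles for library numbers 1 to 8 and triangles for 9 to 16, and the mean and SD of 4 libraries as lines. Cdkn1a, Mdm2 and Bbc3 do not overlap between WT and KI females, and Gadd45b separates by library number most widely in WT females and KI males. The share of all tested genes that separate in these ways is not given, so the gaps are a description.

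Over both sexes the arrest gene Cdkn1a was lower and Gadd45g was higher in KI microglia, and the other 8 genes were not called. A gene was called at a false discovery rate (FDR, Benjamini-Hochberg over all tested genes) below 0.1 together with a log2 fold change beyond 0.5 in either direction in edgeR's quasi-likelihood test with sex as a term. These 2 calls of 10 stand beside 8.64% of all tested genes (4.33% higher and 4.3% lower), and both fold changes lie at the threshold. With the FDR alone 4 of the 10 passed (1 higher, 3 lower), against 14.8% of all genes (6.95% higher and 7.82% lower). The 10 genes had a median log2 fold change of -0.12, all tested genes one of -0.0014.

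Cdkn1a (ENSMUSG00000023067, chr17:29309936-29319701, GRCm39) encodes the cyclin-dependent kinase inhibitor p21. Its level was 19.1, 18.6, 24.7 and 23.9 CPM in WT females and 13.4, 16.4, 10.5 and 13.5 CPM in KI females. In males it was 15.4, 17.6, 20.4 and 15.3 CPM in WT and 10.4, 8.84, 15.8 and 18.8 CPM in KI. Every KI female lay below every WT female, whereas 2 of the KI males fell inside the WT male range. Here and below, the share of all tested genes whose groups do not overlap is not given. Such gaps are therefore a description and not a trait of these genes. All 8 KI libraries were below the WT median. The mean fell from 19.4 ± 3.49 to 13.5 ± 3.43 CPM (SD, n = 8 each). The log2 fold change was -0.51 (SE 0.140) with an edgeR adjusted p of 0.0267. Exchanging genotypes within each sex in all 4900 ways (exact permutation test, two-sided) gave p = 0.00612, where 0.000408 is the smallest it can give. Permutation p-values here and below are for single genes, without adjustment. Over both sexes 4397 of the 18227 tested genes had an unadjusted edgeR p under 0.05. Within females the log2 fold change was -0.68 (SE 0.193, edgeR adjusted p = 0.0463) and within males -0.35 (SE 0.196, adjusted p = 0.515).

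Gadd45g (ENSMUSG00000021453, chr13:52000714-52002508), a family member that cytokines induce, moved the other way. WT females held 11.1, 14.9, 28.5 and 23.6 CPM and KI females 35.6, 26.2, 40.7 and 39.0 CPM. WT males held 25.5, 31.7, 29.2 and 23.3 CPM and KI males 25.1, 26.2, 36.9 and 34.9 CPM. The genotypes overlapped in both sexes, although all 8 KI libraries were above the WT median. The lowest 2 libraries of all were WT females 1 and 2, the libraries with the highest astrocyte and endothelial marker sums. Over both sexes the log2 fold change was 0.39 without WT female 1 (edgeR adjusted p = 0.125) and 0.44 without WT female 2 (adjusted p = 0.148). The part of those markers in the difference was not tested. The mean rose from 23.5 ± 7.14 to 33.1 ± 6.29 CPM (SD, n = 8 each). The log2 fold change was 0.50 (SE 0.174, edgeR adjusted p = 0.0762, exact permutation p = 0.0176). It was 0.85 (SE 0.224, edgeR adjusted p = 0.0319) in females and 0.16 (SE 0.221, adjusted p = 0.817) in males.

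Both calls changed when single libraries were omitted. Cdkn1a stayed below an FDR of 0.1 in 16 of 16 omissions but was past the fold threshold in 8, and its log2 fold change went from -0.62 to -0.45. It lost the call without WT male 3, KI male 1 or 2, WT female 3 or 4, or KI female 1, 3 or 4. Gadd45g was called in 8 of 16 omissions, with log2 fold changes of 0.39 to 0.58, and lost the call without WT male 4, KI male 3 or 4, WT female 1 or 2, or KI female 1, 3 or 4. No gene of the 10 was called without KI female 1, 3 or 4. In the female comparison Cdkn1a lost its call without WT female 3 or KI female 1, 3 or 4, and Gadd45g without WT female 1 or 2 or KI female 3.

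Mdm2 (ENSMUSG00000020184, chr10:117524780-117546730), whose product marks p53 for degradation, was lower in KI by less than the fold threshold. WT females held 69.1, 67.7, 64.9 and 59.98 CPM and KI females 53.4, 50.5, 50.03 and 51.6 CPM. WT males held 49.4, 54.2, 51.1 and 54.5 CPM and KI males 45.6, 46.9, 56.2 and 52.4 CPM. The female groups were apart with a wide gap, and the WT females stood above the other 3 groups, while the male groups overlapped. The highest 2 libraries of all were WT females 1 and 2, the libraries with the highest astrocyte and endothelial marker sums. The part of the astrocyte and endothelial markers in the Mdm2 difference was not tested. Over both sexes the log2 fold change was -0.20 (SE 0.0583, edgeR adjusted p = 0.0342, exact permutation p = 0.00735), and its FDR stayed below 0.1 in 16 of 16 omissions. In females it was -0.35 (SE 0.0691, edgeR adjusted p = 0.00564), and in males -0.06 (SE 0.0698, adjusted p = 0.794). Across libraries, the deviations of Mdm2 from its group means ran opposite to those of the neuroblast markers (r = -0.87 over 16 libraries, a description), and the part of those markers in the Mdm2 difference was not tested.

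Bbc3 (ENSMUSG00000002083, chr7:16042318-16052130), the apoptosis inducer PUMA, had an FDR below 0.1 but a fold change under the threshold. Its level was 9.62, 9.47, 10.7 and 10.5 CPM in WT females and 6.01, 6.78, 6.02 and 8.22 CPM in KI females. WT males held 7.96, 6.97, 8.06 and 8.52 CPM and KI males 4.67, 5.70, 7.21 and 10.03 CPM. The female groups did not overlap, and KI males spanned the whole WT male range. The log2 fold change was -0.38 (SE 0.133, edgeR adjusted p = 0.0821, exact permutation p = 0.0139) over both sexes, with an FDR below 0.1 in 5 of 16 omissions. In females it was called, at -0.58 (SE 0.179, edgeR adjusted p = 0.0690), and the call held in 9 of 16 omissions. It was lost without any one of the 4 WT females and without KI female 1, 2 or 3.

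Trp53 itself (ENSMUSG00000059552, chr11:69469669-69482701) was 27.5 to 33.7 CPM in WT (median 29.6) and 23.6 to 28.8 CPM in KI (median 27.6). The ranges overlapped, and all 8 KI libraries lay below the WT median. The log2 fold change was -0.14 (SE 0.0526, edgeR adjusted p = 0.103), and the exact permutation p was 0.00653. Ccng1, which encodes cyclin G1, was 87.5 to 105.1 CPM in WT (median 98.9) and 87.0 to 108.6 in KI (median 103.7), with a log2 fold change of 0.04 (95% interval -0.05 to 0.14). Sesn1, an antioxidant protein that restrains mTORC1, was 70.0 to 93.0 CPM in WT (median 85.1) and 65.1 to 87.2 in KI (median 78.6), with -0.11 (-0.26 to 0.04). The intervals of Ccng1 and Sesn1 leave out changes past the threshold.

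Gadd45a (chr6:67012070-67014441), the classical p53 target of the family, was 1.87 to 9.40 CPM in WT (median 6.45) and 4.40 to 6.71 in KI (median 5.48). Its log2 fold change was -0.04, with a 95% interval of -0.46 to 0.39. Of its 1774 exon bases 990 are shared with E230016M11Rik on the other strand, which had 6 to 26 counts, and the strand setting of the counting is not given in the sources used here. Other members share exon bases with opposite-strand genes as well: Sesn1 548 with Cep57l1, Cdkn1a 504 with Dino and Mdm2 348 with Gm56970. Trp53 shares 263 with Wrap53 and Ccng1 114 with Nudcd2. Phlda3 was 0.304 to 1.25 CPM in WT (median 0.688) and 0.430 to 1.43 in KI (median 0.922), with a log2 fold change of 0.31 (-0.25 to 0.88). Its male groups did not overlap, at 0.428, 0.843, 0.559 and 0.304 CPM in WT and 1.02, 0.909, 1.43 and 0.982 CPM in KI, but the fold change in males (0.93, SE 0.346) had an edgeR adjusted p of 0.300.

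**Figure D2:**
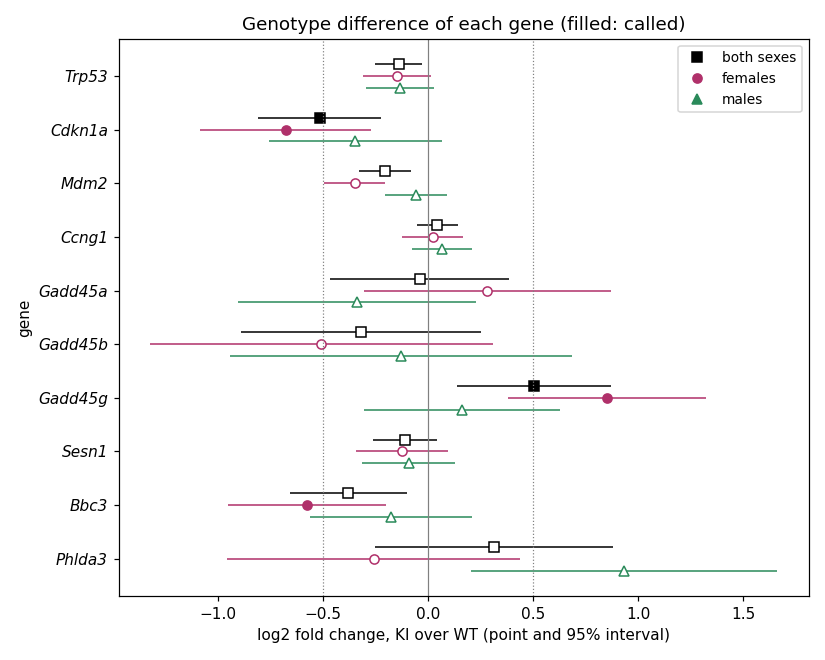
Log2 fold change of KI over WT (x axis) for the 10 genes over both sexes, in females and in males, with 95% intervals. Filled symbols are called and dotted lines mark the threshold of 0.5. Cdkn1a and Gadd45g are filled over both sexes at -0.51 and 0.50, and in females Bbc3 is filled as well.

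In females alone 3 of the 10 were called (Cdkn1a and Bbc3 lower, Gadd45g higher), against 7.15% of all genes. In males 0 of 10 were called by edgeR, against 0.252% of all genes, with Phlda3 the 1 gene at an unadjusted p under 0.05. The share of all tested genes at that level in males is not given. DESeq2 and limma voom also called 0 of the 10 in males. The difference between the sexes was tested with the genotype-by-sex term, which called 0 of the 10, against 0.0274% of all genes. The smallest unadjusted edgeR p-values there were 0.00846 for Mdm2, 0.0233 for Phlda3 and 0.0420 for Gadd45g, with adjusted p of 0.569, 0.727 and 0.812. The 3 genes called in females are therefore not shown to differ from males. Between the sexes themselves 0 of 10 were called, against 0.0604% of all genes. Mdm2, with a log2 fold change of 0.18 (females over males), had the smallest edgeR adjusted p of the 10, 0.702.

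The libraries carry numbers from 1 to 16 in the labels, and each group has 2 libraries numbered 1 to 8 and 2 numbered 9 to 16. What the numbers stand for is not given. Gadd45b, an early response gene of NF-kB and stress signalling (ENSMUSG00000015312, chr10:80764523-80768038), differed by these numbers more than by genotype. WT females held 34.8 and 35.2 CPM at numbers 1 to 8 and 112.6 and 89.8 CPM at 9 to 16, and KI females 37.7 and 41.4 against 43.2 and 70.1 CPM. KI males held 27.7 and 29.2 against 80.6 and 87.3 CPM, whereas WT males held 59.3 and 76.9 against 53.3 and 56.1 CPM. The 2 sets of numbers did not overlap in any group: 9 to 16 was higher in 3 groups, most widely in WT females and KI males, and lower in WT males. Each of these gaps rests on 2 libraries against 2, and the share of all tested genes with such gaps is not given.

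In the additive edgeR fit, library numbers 9 to 16 were 0.82 higher than 1 to 8 for Gadd45b on the log2 scale (SE 0.203, adjusted p = 0.0503), the 1 member called by this term, against 0.73% of all genes (0.631% higher). With the FDR alone Ccng1 (-0.13, edgeR adjusted p = 0.0772) and Sesn1 (-0.19, adjusted p = 0.0908) passed as well, so 3 of 10 did, against 3.83% of all genes. The term was 0.53 for Gadd45a (adjusted p = 0.110) and 0.38 for Gadd45g (adjusted p = 0.227). The genotype difference of Gadd45b was -0.32 over both sexes (SE 0.272, edgeR adjusted p = 0.526, exact permutation p = 0.347). Within numbers 1 to 8 its mean was 51.5 CPM in WT and 34.0 in KI, and within 9 to 16 it was 77.9 and 70.3. In males the direction turned, from 68.1 in WT and 28.5 in KI at numbers 1 to 8 to 54.7 and 83.9 at 9 to 16, with 2 libraries in each.

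The genotype differences of Cdkn1a and Gadd45g kept their direction within both sets of library numbers. Cdkn1a averaged 17.7 CPM in WT and 12.3 in KI at numbers 1 to 8, and 21.1 and 14.6 at 9 to 16. In KI males, however, it was near WT males at 9 to 16 (17.3 against 17.8 CPM). Gadd45g averaged 20.8 CPM in WT and 28.3 in KI at numbers 1 to 8, and 26.2 and 37.9 at 9 to 16. In males it was 28.6 in WT and 25.7 in KI at numbers 1 to 8, so there the male difference had the opposite sign. With the library number as a term Gadd45g was no longer called and Cdkn1a was.

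The 10 genes were next compared for how they vary among themselves, as deviations of log2 CPM from the 4 group means. Of 45 pairs, 6 had a Pearson r with an adjusted permutation p under 0.1 (100000 permutations within groups, two-sided). The share of all tested gene pairs that reach such an r is not given. The count is therefore a description and not a trait of these genes. Gadd45a and Gadd45g had r = 0.91 (rho = 0.87, permutation p = 0.000430, adjusted p = 0.0193), and r = 0.81 without the 2 libraries farthest from the median. The other 5 were Gadd45b with Gadd45g (r = 0.83), Trp53 (0.75), Gadd45a (0.74) and Bbc3 (0.71), and Trp53 with Cdkn1a (0.71). With Spearman's rho 4 of these 6 had an adjusted permutation p under 0.1, and Gadd45b with Bbc3 and with Trp53 had 0.109. Mdm2 was in none of the 6.

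These pairs share libraries and the library numbers. As deviations from the means of group and library number set, r was 0.74 for Gadd45a with Gadd45g, 0.65 for Trp53 with Cdkn1a, 0.57 for Trp53 with Gadd45b and 0.53 for Gadd45b with Bbc3. It was 0.12 for Gadd45b with Gadd45g and 0.14 for Gadd45a with Gadd45b. The count of pairs was 0 without WT female 3 and 10 without KI female 2, KI female 3 or WT male 4, so the count rests on single libraries. It was 2 without WT female 4 or KI female 1, 3 without KI female 4, and 1 without KI male 2, 3 or 4.

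**Figure D3:**
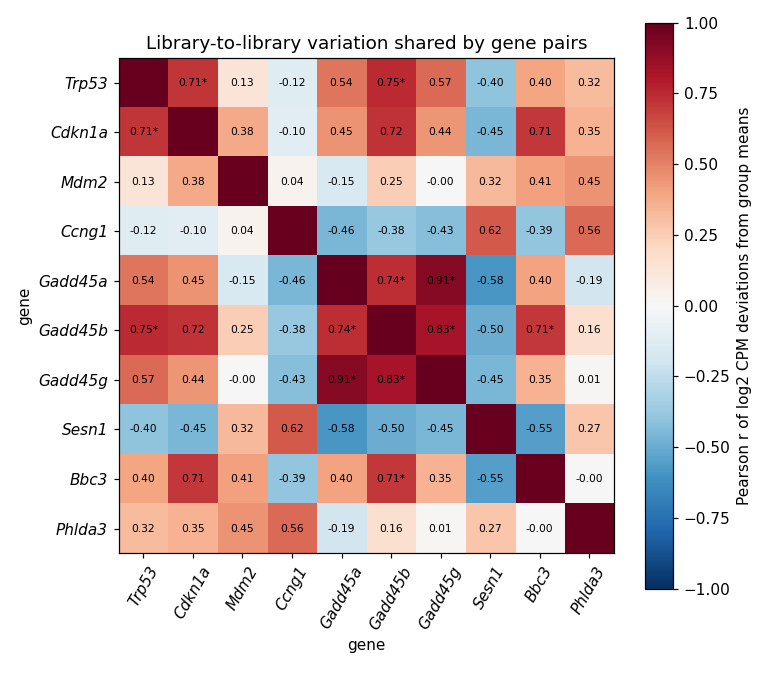
Pearson r of the deviations of log2 CPM from the 4 group means over 16 libraries for each pair of the 10 genes (both axes list the genes, colour gives r from -1 to 1). Asterisks mark the 6 pairs with an adjusted permutation p under 0.1. The Gadd45 genes have r of 0.74 to 0.91 with each other, and Trp53, Cdkn1a and Gadd45b have 0.71 to 0.75. As deviations from the means of group and library number set (not drawn), Gadd45b had 0.12 with Gadd45g and 0.14 with Gadd45a. Gadd45a with Gadd45g had 0.74 there, and Trp53 with Cdkn1a 0.65.

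The genes most like each member were named by the same deviations over the 16 libraries, as a description out of 18227 tested genes. Gadd45b was most like Tlr2 (r = 0.97), a receptor for bacterial lipoproteins, Irf1 (0.96), an interferon-response transcription factor, and Ciart (0.95). Bbc3 was most like Csrnp1 (0.94), Kdm6b (0.93), a histone H3K27 demethylase, and Tnfrsf12a (0.93), and it followed the mean of the immediate early list with r = 0.91. Gadd45a and Gadd45g both had Gdf15, a stress-induced cytokine, among their 3 nearest genes (r = 0.90 and 0.92). Their others were Fzd5 (0.93) and Rnd1 (0.92) for Gadd45a, and Wif1 (0.94) and Rps15a (0.91) for Gadd45g.

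Cdkn1a was most like the non-coding gene Gm7008 (r = 0.95), Nfe2l2 (0.92), which encodes the antioxidant regulator NRF2, and Krt9 (0.90, at a mean of only 0.439 CPM). Trp53 was nearest to Efnb2 (0.90) and Vps18 (0.89), Mdm2 to Ddx50 (0.92) and Gnas (0.90), and Ccng1 to Chmp2b (0.93), Btbd1 (0.92) and Aebp2 (0.92). Sesn1 was nearest to Golm1, Lsm6 and Orai3 (0.92, 0.92 and 0.91), and Phlda3 to Rad23b, Mesd and Hk2 (0.90, 0.89 and 0.88). The third place for Trp53 and Mdm2 went to ENSMUSG00000120985 (0.85) and ENSMUSG00000120757 (0.92), which were not matched to a symbol.

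The wider pathways were described with gene lists in which some members recur. Their counts of called genes stand beside 4.33% of all tested genes called higher and 4.3% called lower. Genes past the FDR alone stand beside 6.95% of all tested genes higher and 7.82% lower. Among 19 p53 targets of arrest and repair, 3 were called lower and 0 higher, with a median log2 fold change of -0.11. Besides Cdkn1a these were Btg2, an antiproliferative gene (-1.44, SE 0.222, edgeR adjusted p = 0.000723), and Plk3, a stress kinase (-1.05, SE 0.168, adjusted p = 0.000854). Both are also early response genes. Zmat3 (0.13) and Sesn2 (-0.17) were not called.

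None of the 14 tested apoptosis targets was called (median -0.09), and 2 passed the FDR alone, Bbc3 and Apaf1 (-0.14), which forms the apoptosome. Pmaip1, which encodes NOXA, was at -0.24. Of the 7 genes of negative feedback on p53 none was called (median -0.12), and Mdm2, Rchy1 (-0.28) and Ppm1d (-0.20), a ubiquitin ligase pair and a phosphatase acting on p53, passed the FDR alone. Of the 14 tested p53 family members and activators none was called (median -0.02), with Ep300 (-0.15) and Crebbp (-0.10), which acetylate p53, past the FDR alone. Trp63, Trp73 and Cdkn2a were too low to test. Of 8 BH3-only genes none was called (median -0.04), and the low Hrk and Bik were at 0.73 and 0.59.

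Among 17 Gadd45 family members, partners and genes of the MAP kinase relay, Gadd45g was called higher and Pcna, the replication clamp that binds Gadd45 proteins, lower (-0.70, SE 0.101, edgeR adjusted p = 0.000517), with a median of -0.09. Mapk14 (-0.12) and Map2k3 (-0.27), the p38 kinase and its activator, passed the FDR alone, and Mapk8 was at -0.10. The 8 markers of proliferating cells had a median of -0.25 with 0 called. Of 5 tested cyclin-dependent kinase inhibitors Cdkn1a alone was called (median -0.05), Cdkn1b (-0.15) passed the FDR alone, and Cdkn1c and Cdkn2c were at -0.04 and -0.05.

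Of 15 tested genes of the integrated stress response 4 were called lower and 0 higher (median -0.17): the regulators Atf4 (-0.70), Atf3 (-1.18) and Ddit3 (-0.54), and Ppp1r15a (-0.86), which encodes the phosphatase subunit GADD34. Cebpb (-0.41) passed the FDR alone, and Asns, a target of Atf4, was at 0.44. Of 20 immediate early genes 16 were called lower and 0 higher (median -0.89), from Fos (-1.61), Fosb (-1.46) and Btg2 to Jund (-0.52). In males none of these 16 had an edgeR adjusted p under 0.1, and the genotype-by-sex term called none of them. The summed level of the list was 13361 to 17178 CPM in WT females and 4151 to 7500 in KI females. In males it was 7745 to 9239 CPM in WT, 3645 and 3591 in KI males 1 and 2, and 7194 and 8043 in KI males 3 and 4. Of 13 NF-kB feedback genes 7 were called lower and 0 higher (median -0.58), among them Tnf (-1.17), Nfkbiz (-1.14) and Nfkbia (-0.72). The lists were chosen with earlier results of these data known, and the lower immediate early genes are no independent evidence. Over these 10 lists 31 genes were called, 1 higher and 30 lower. Within library numbers 9 to 16 alone 3 were (1 higher, 2 lower), where calls over all tested genes went from 8.64% to 0.428%. The 2 sets differed, and within library numbers 1 to 8 alone 13.7% of all tested genes were called.

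**Figure D4:**
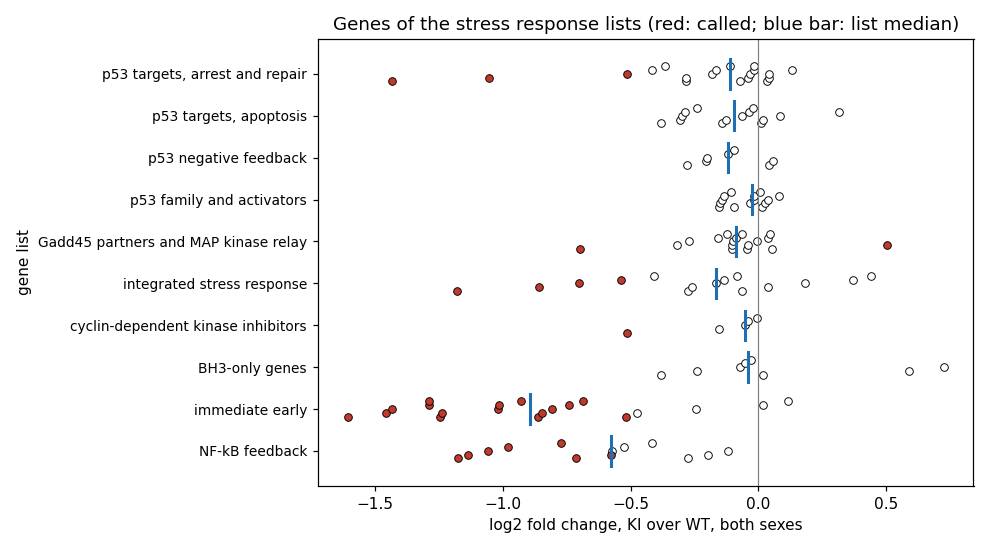
Log2 fold change of KI over WT over both sexes (x axis) for the tested genes of 10 stress response lists, 1 point per gene, red where called and with the list median as a blue bar. The p53 lists centre between -0.12 and -0.02, and the immediate early and NF-kB lists at -0.89 and -0.58.

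The level of Bbc3 followed the NF-kB feedback list (r = 0.89) as closely as that of Gadd45b did (r = 0.89), and Cdkn1a followed the integrated stress response list (r = 0.85) and the NF-kB list (r = 0.80), each over 16 libraries as deviations from group means. Gadd45g had r = 0.58 with the NF-kB list, 0.45 with the integrated stress response and 0.28 with the immediate early list. With the immediate early list Ccng1 had -0.31 and Sesn1 -0.46. The points share libraries, their depth and their library numbers.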

How the data were processed

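Microglia RNA of the 16 libraries was sequenced paired-end. The authors aligned reads with STAR to GRCm39 with a gencode annotation and the human App sequence, and deposited raw counts per gene, which are whole numbers without normalization. The 10 genes and all lists were chosen with earlier results of these data known.

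Here a gene was kept if 8 or more of the 16 libraries (50%) had a count of 5 or higher. This left 18227 genes with 99.9% of all counts, which were tested with edgeR 4.0.16 (R 4.3.3), TMM factors and the quasi-likelihood test, with genotype and sex as terms. Within-sex and interaction contrasts came from a fit of the 4 groups. Calls need an FDR below 0.1 and a log2 fold change beyond 0.5 in either direction. A standard error is the size of the log2 fold change over the square root of F. Log2 CPM carries a prior count of 2. The procedure was tested on simulated data. Exon lengths and starts came from GENCODE vM39, which matched 97.4% of the genes. Python 3.11.15 and scipy 1.17.1 ran the permutations.

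The named genes are the 10 members, every called gene and the 3 of smallest p of each list, and the 3 genes most like each member. Alternatives were other normalizations (RLE size factors, library totals), DESeq2 1.42.0, limma voom 3.58.1, filters, thresholds, a robust dispersion, a replicate block, a library number term, no sex term, each sex alone and each library left out. The library number test and the fits of library numbers 1 to 8 or 9 to 16 alone were chosen after seeing the data. Library totals were 9052932 to 18117286 counts, and the precision of a gene rests on its counts and on the spread between libraries.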

Additional observations from a re-analysis of the deposited data

Results flagged for a closer look

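Gadd45a in WT male 3 stood far above the other 3 WT males (9.40 against 6.39 to 6.57 CPM), with a gap of 0.927 of the group's range on the log2 scale. Trp53 in KI male 2 was the lowest of its group (23.6 CPM, gap 0.852), and Ccng1 in WT female 4 the lowest of its group (87.5 CPM, gap 0.842). Each gap is past the 95% critical value of Dixon's test. Of 44 groups tested, 3 had such a sample where chance gives about 2.2, since it flags about 1 in 20.

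Gadd45a also had KI females and KI males on opposite sides of their WT means, a difference between the sexes of 0.739 in mean log2 CPM. The genotype-by-sex term of edgeR gave 0.62 (SE 0.388, adjusted p = 0.933), so the difference did not pass the test.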

How the results depend on the processing

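The count of called members over both sexes was 2 and became 1 with library totals alone, a robust dispersion, an FDR below 0.05, the library number term, no sex term or library numbers 9 to 16 alone, and 4 with no fold threshold. It was 0 to 2 with single libraries left out. In females it was 3 and ranged from 0 to 3 with single libraries left out (0 without KI female 3). In males it was 0 and became 2 (Cdkn1a and Gadd45b lower) within library numbers 1 to 8 alone. For genotype by sex it was 0 and became 1 (Gadd45g) with no low-count filter and 2 (Gadd45b and Gadd45g) within library numbers 1 to 8. The list total of 31 became 3 within library numbers 9 to 16. The cause was not tested.

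The replicate numbers do not pair the samples: of 24 same-number pairs 8 had deviations correlated over 0.1 (-0.33 to 0.29). With the replicate block 2 members were called over both sexes, 3 in females and 0 in males. The 6 correlated pairs became 0 with that block and 0 to 10 with single libraries left out.

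Signs turned only in values near 0 or within sets of library numbers. Over both sexes Gadd45a was 0.00944 with library totals, 0.020 with limma voom and 0.12 within library numbers 1 to 8, and -0.18 to 0.058 with libraries left out. Cdkn1c was 0.0086 with library totals. Within library numbers 1 to 8 Cdkn2c was 0.13 (-0.16 to 0.064 with libraries left out) and Sesn2 0.036, and within 9 to 16 Rchy1 was 0.0046. In females Gadd45b was 0.16 within library numbers 1 to 8, and Ccng1 was -0.022 within 9 to 16 and -0.0019 to 0.074 with libraries left out. In males Gadd45g was -0.16 within 1 to 8, and Mdm2 was 0.043, Gadd45b 0.62 and Bbc3 0.070 within 9 to 16, with Gadd45b -0.44 to 0.094 with libraries left out. The genotype-by-sex value of Gadd45b went from -0.38 to 1.42 within library numbers 1 to 8 (edgeR adjusted p = 0.00216). Values of single genes for sex and for genotype by sex were recomputed only for the genes printed here.

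Among all tested genes, calls over both sexes numbered 1574, and 1107 to 2692 across settings on all libraries, 1101 to 2187 with single libraries left out, 2494 within library numbers 1 to 8 and 78 within 9 to 16. With no low-count filter, calls went from 1304 to 2136 in females, from 46 to 880 in males, from 5 to 470 for genotype by sex and from 11 to 57 for sex. DESeq2 called 276 in males and 81 for genotype by sex. Phlda3 had 3 to 20 counts per library.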
